A study of Mus musculus with 10 samples.

Results

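The 8 genes of the urea cycle were Nags, Cps1, Otc, Ass1, Asl and Arg1, which encode its enzymes and the enzyme that switches it on, and Slc25a15 and Slc25a13, which encode its mitochondrial carriers. They were taken by symbol as members of the pathway, and each matched 1 row of the 31053 genes in the files. The urea cycle of the liver turns ammonia, released when amino acids are broken down, into urea. N-acetylglutamate, made by NAGS, activates carbamoyl phosphate synthetase (CPS1) in the mitochondrion, and OTC joins the carbamoyl phosphate to ornithine. The citrulline formed leaves the mitochondrion, is joined to aspartate by ASS1 and split by ASL into arginine and fumarate, and ARG1 releases urea and returns ornithine. In normal liver the cycle is known to run mainly in periportal hepatocytes, which meet incoming blood first, whereas pericentral hepatocytes near the outflowing vein capture the remaining ammonia as glutamine.

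Gene expression was measured with Visium, which captures RNA of a thin tissue section on barcoded spots and counts each captured molecule once by its unique molecular identifier (UMI). One spot covers many cells of possibly different types, so in all values below fewer cells of a type and less RNA per cell cannot be told apart. There were 10 mouse sections from 7 tissues: NEJ146 was cut into 4 adjacent sections, and NEJ634, NEJ687, NEJ723, NEJ638, NEJ654 and NEJ677 gave 1 each. The study's model, ABC-Myc, expresses human MYC from a CAG promoter after Cre, driven by albumin regulatory sequence in the hepatocyte lineage, removes a stop cassette, on a C57BL/6J background. The study's normal controls were littermates without Cre, without the MYC transgene or without both. For spatial work the study describes perfusion of the ABC-Myc mouse with EDTA and then collagenase IV before tumour tissue was taken. The genotype of each sampled mouse and the ages of these mice are not given in the sources used here.

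The labels call all 10 sections hepatoblastoma, a childhood liver tumour, and the protocol of the 6 tissues with 1 section speaks of tumour and normal liver without naming which is which. The study's text calls NEJ146, NEJ634, NEJ687 and NEJ723 tumours and describes the rest of its spatial samples as healthy livers. That leaves NEJ638, NEJ654 and NEJ677 as the livers, although they are not named there. Summed marker genes went against the common label: the summed level of the oncofetal genes Afp, Igf2, Dlk1 and H19 was 3804 to 13628 counts per 1e6 UMIs (CPM) in those 4 tissues, and 90.1, 10.4 and 10.1 CPM in NEJ638, NEJ654 and NEJ677. The hepatocyte genes Alb, Apoa1, Ttr, Trf, Fgb, Apob and Serpinc1 summed to 26757 to 38044 CPM in the former and to 95027 to 131156 CPM in the latter. Alb made up most of the difference, and single markers could depart from the sums: H19 was lower in NEJ723 than in NEJ638 (80.2 CPM), and Fgb and Serpinc1 were highest in NEJ687. Groups were taken from the labels alone, which do not give tumour and liver, so none were formed for a test. As a description, values of NEJ638, NEJ654 and NEJ677 are set beside those of the 4 tissues that the study calls tumours. Each labelled group was 1 tissue, with no test between tissues. The only replicate error was the standard deviation (SD) over the 4 NEJ146 sections, which holds no variation between animals. Section 4 of NEJ146 stood apart: over all genes, chi-square divided by its degrees of freedom was 67.6 to 91.6 against the other 3 and 14.8 to 20.5 among those. UMIs over tissue ranged from 39280329 to 117077925 per section. The labels say total RNA for NEJ146 and polyA RNA for the other tissues, although Visium was used for all, so the entry may not mark a real difference. The labels also name another program for NEJ146, Cell Ranger 6.0 in place of Space Ranger 1.3, and its processing and the tissue cannot be told apart.

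The genes lie apart in the mouse genome (GRCm38, GENCODE M21 gene bounds). Cps1 is at chr1:67123026-67231259, Otc at chrX:10252305-10321024, Ass1 at chr2:31470207-31520672 and Asl at chr5:130011258-130029247. Arg1 is at chr10:24915221-24927484, Nags at chr11:102145513-102149477, Slc25a15 at chr8:22375551-22398597 and Slc25a13 at chr6:6041218-6217173. RefSeq promoter windows, from 250 bases before to 50 bases after the start (GRCm38.p6), matched 5 of the 8 genes. Those of Otc, Ass1, Nags and Slc25a13 are shown 5′ to 3′ on the gene's strand. Otc was the gene that varied most between tissues. In NEJ638, NEJ654 and NEJ677, Ass1 varied with position in the lobule, and Nags and Slc25a13 varied little with it. Capitals mark a GC box (GGGCGG) or a CCAAT box on either strand.
Otc, chrX:10252055-10252354, plus strand: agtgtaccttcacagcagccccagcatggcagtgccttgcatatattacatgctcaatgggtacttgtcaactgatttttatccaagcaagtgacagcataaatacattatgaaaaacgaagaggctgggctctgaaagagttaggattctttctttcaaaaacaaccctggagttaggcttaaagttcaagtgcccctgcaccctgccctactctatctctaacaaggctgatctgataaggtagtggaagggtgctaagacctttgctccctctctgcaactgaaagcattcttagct
Ass1, chr2:31470020-31470319, plus strand: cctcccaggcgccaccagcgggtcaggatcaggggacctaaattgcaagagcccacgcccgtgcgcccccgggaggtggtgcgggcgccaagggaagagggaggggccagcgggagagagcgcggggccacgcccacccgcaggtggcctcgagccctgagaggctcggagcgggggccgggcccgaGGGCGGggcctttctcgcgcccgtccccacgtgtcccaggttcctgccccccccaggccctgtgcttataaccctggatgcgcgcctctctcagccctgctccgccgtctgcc
Nags, chr11:102145263-102145562, plus strand: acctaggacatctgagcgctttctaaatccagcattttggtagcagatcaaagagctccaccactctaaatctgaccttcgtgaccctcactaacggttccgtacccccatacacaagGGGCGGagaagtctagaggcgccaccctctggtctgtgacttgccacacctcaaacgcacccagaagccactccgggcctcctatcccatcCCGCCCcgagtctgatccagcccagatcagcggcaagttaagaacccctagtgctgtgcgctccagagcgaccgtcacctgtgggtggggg
Slc25a13, chr6:6217124-6217423, minus strand: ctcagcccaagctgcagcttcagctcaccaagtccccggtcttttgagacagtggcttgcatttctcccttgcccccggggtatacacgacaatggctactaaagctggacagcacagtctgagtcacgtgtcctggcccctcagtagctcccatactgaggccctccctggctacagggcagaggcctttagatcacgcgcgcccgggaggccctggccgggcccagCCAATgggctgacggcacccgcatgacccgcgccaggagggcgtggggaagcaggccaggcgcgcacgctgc
The Otc window was 44.3% G and C and held neither box, against 74.0% in Ass1, 57.7% in Nags and 65.0% in Slc25a13. Of 32851 promoter windows, 35.7% held a GC box and 37.4% a CCAAT box. None of the 4 windows held TATAAA (13.6% of all windows), the HNF4 core CAAAGTCCA (0.475%), the HNF1 motif GTTAAT (7.10%) or the C/EBP site TTGCNNAA (10.8%). A match or its absence describes only these letters.

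Across tissues the genes of the cycle did not move as a block. Otc was far lower in NEJ146, NEJ634, NEJ687 and NEJ723 than in NEJ638, NEJ654 and NEJ677, Arg1, Slc25a15 and Nags were lower by less, Ass1 and Asl were separated by little in plain CPM, and Cps1 and Slc25a13 overlapped. Levels are CPM of UMIs summed over tissue spots, given as mean ± SD over 4 sections for NEJ146. Because UMIs were captured near the 3′ end of each transcript, a gene is compared across tissues and not with another gene.

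Cps1, the entry enzyme, was at 2366, 2145, 2222 and 2360 CPM in the 4 NEJ146 sections, a mean of 2273 ± 108 (SD, n = 4). It was at 2306 CPM in NEJ687, 1585 in NEJ634 and 1168 in NEJ723, and NEJ638 had 2482, NEJ654 1867 and NEJ677 1701 CPM. NEJ146 and NEJ687 thus lay within 2 SD of NEJ638, the highest tissue, and beyond 2 SD above NEJ654. Both placements depended on the scaling. With TMM scaling NEJ146 had 2356 and NEJ687 2001 CPM, against 2653 in NEJ638, 2200 in NEJ654 and 2138 in NEJ677. Without the abundant genes in the total they had 2897 and 2823, against 3506 in NEJ638 and 2742 in NEJ654. NEJ723 was the lowest, beyond 2 SD below NEJ634. The whole range was 2.13-fold, at the 42.7th percentile of the ranges of all genes tested.

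Otc, which makes citrulline, was at 190, 193, 192 and 220 CPM in the NEJ146 sections (199 ± 14.3, SD, n = 4), 137 in NEJ687, 125 in NEJ634 and 57.1 in NEJ723. Levels were 542 CPM in NEJ638, 482 in NEJ654 and 553 in NEJ677. The last 3 did not differ beyond 2 SD from their neighbours in this order, and NEJ654 stood 1.28 above NEJ146 on the log2 scale, against a 2 SD of 0.20. The level in NEJ677 was 9.70-fold that in NEJ723, the widest range of the 8 genes.

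Arg1, the final enzyme, was at 378, 416, 365 and 398 CPM in the NEJ146 sections (389 ± 22.2, SD, n = 4), 350 in NEJ687, 290 in NEJ634 and 288 in NEJ723. NEJ638 had 919 CPM, NEJ654 628 and NEJ677 600. The gap between NEJ677 and NEJ146 was 0.62 (log2), against a 2 SD of 0.16, and NEJ638 stood 0.55 above NEJ654.

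Ass1, which joins citrulline and aspartate, was at 1094 ± 66.1 CPM in NEJ146 and 1085 in NEJ687, 583 in NEJ634 and 532 in NEJ723. NEJ638 had 1356 CPM, NEJ654 1562 and NEJ677 1223. Although the order put the last 3 on top, NEJ677 and NEJ146 differed by 0.16 (log2), within 2 SD (0.17). This gap was 0.35 with TMM scaling, then between NEJ638 and NEJ146, and 0.34 without the abundant genes, both beyond 2 SD. The wide step lay below, where NEJ687 exceeded NEJ634 by 0.90.

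Asl was at 249 ± 21.8 CPM in NEJ146, 252 in NEJ687, 214 in NEJ723 and 181 in NEJ634, while NEJ638 had 493, NEJ654 311 and NEJ677 280 CPM. The step from NEJ638 to NEJ654 exceeded 2 SD, and no later step in its order did. The gap between the lowest of these 3 and the highest of the others was 0.15 (log2), and was 0.45 with TMM scaling and 0.35 without the abundant genes. Nags, the source of the activator of CPS1, was at 49.2 ± 0.42 CPM in NEJ146, 40.8 in NEJ687, 44.5 in NEJ634 and 47.4 in NEJ723. It reached 84.6 CPM in NEJ638, 92.1 in NEJ654 and 63.0 in NEJ677. The lowest of these stood 0.35 (log2) above NEJ146.

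The carriers went different ways. Slc25a15, which exchanges ornithine for citrulline, was at 107 ± 4.49 CPM in NEJ146, 123 in NEJ687, 90.9 in NEJ634 and 68.0 in NEJ723, while NEJ638 had 220, NEJ654 222 and NEJ677 175 CPM. The lowest of the latter exceeded NEJ687 by 0.50 (log2). Slc25a13, or citrin, which exports the aspartate used by ASS1, was at 147 ± 10.3 CPM in NEJ146, 148 in NEJ687, 96.0 in NEJ723 and 88.4 in NEJ634, while NEJ638 had 161, NEJ654 130 and NEJ677 139 CPM. From NEJ638 down to NEJ654 no step in its order exceeded 2 SD, and only NEJ723 and NEJ634 lay apart below.

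**Figure D1:**
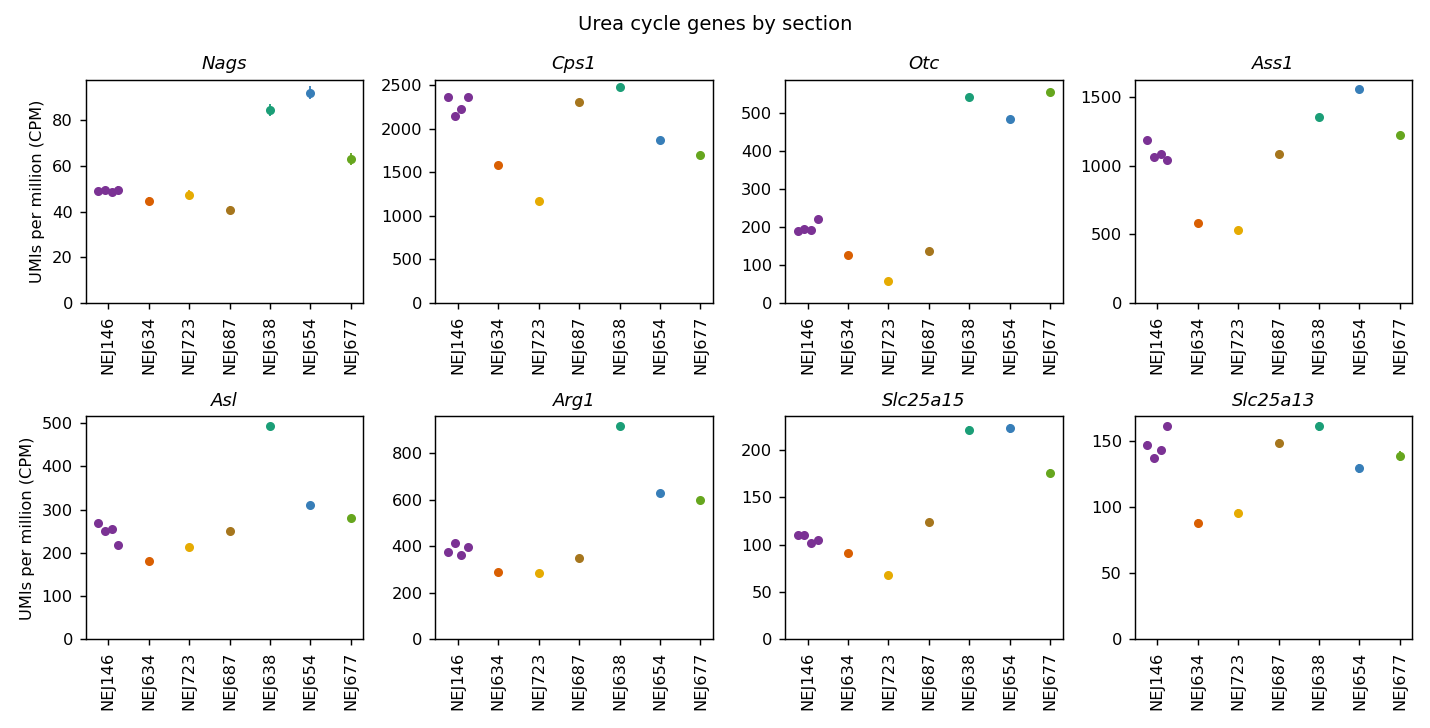
Level of each urea cycle gene (vertical axis, CPM from 0) in each of the 10 sections, by tissue, with bars for 95% Poisson intervals of the count, most of them smaller than the point. Otc lies at 57.1 to 220 CPM in the 7 sections on the left and at 482 to 553 CPM in NEJ638, NEJ654 and NEJ677, whereas Cps1 overlaps.

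In all, 6 of the 8 genes (Otc, Ass1, Asl, Arg1, Nags and Slc25a15) had NEJ638, NEJ654 and NEJ677 as their 3 highest tissues. This order was found in 18.1% of the 8021 genes whose mean reached 10 CPM. None of the 8 had them as the 3 lowest, against 44.1% of genes. The range over tissues exceeded 10 times the section spread for 7 of the 8, all but Slc25a13, against 62.9% of genes, a share near that of the list. CPM depends on the rest of the library: 41 abundant genes held 16.5 to 21.9% of UMIs in NEJ146, NEJ634, NEJ687 and NEJ723 and 29.2 to 31.9% in the other 3, and the median gene was shifted by -0.39 on the log2 scale in these 3. With TMM scaling this shift was 0.03, the order held for 32.4% of genes and for 6 of the 8, and the range passed for all 8. Without the abundant genes in the total the shift was -0.17 and the share 24.6%, and 7 of the 8 had the order. Slc25a13 joined with a gap of 0.02, in place of -0.20. With TMM scaling its overlap rested on NEJ146 alone, at 152.7 CPM beside 152.6 in NEJ654. The gap of Cps1 stayed below 0 under both.

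Set against Cps1 in the same tissue, which no scaling changes, Otc gave 8.73 UMIs per 100 Cps1 UMIs in NEJ146, 5.95 in NEJ687, 7.87 in NEJ634 and 4.88 in NEJ723. The ratio was 21.8 in NEJ638, 25.8 in NEJ654 and 32.5 in NEJ677, so the groups of values did not overlap. Arg1 gave 15.2 to 24.6 UMIs per 100 in the former 4 tissues and 33.6 to 37.0 in the latter 3. Ass1 gave 36.8 to 48.1 and 54.6 to 83.7, and Slc25a15 4.70 to 5.82 and 8.88 to 11.9, also without overlap. The share of all genes that separate in this way against Cps1 was not counted, so these separations cannot be called unusual. Against Cps1, Asl and Nags overlapped through NEJ723, at 18.3 for Asl (16.5 to 19.9 in the latter 3) and 4.06 for Nags (3.41 to 4.93). Slc25a13 overlapped too, with 5.57 to 8.21 in the former and 6.50 to 8.16 in the latter.

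The genes around the cycle were split between the same tissues in both directions. Among its partners 5 of 10 genes tested had NEJ638, NEJ654 and NEJ677 as the 3 highest and 2 as the 3 lowest, beside 18.1% and 44.1% of all genes. These shares are the background of the lists that follow too. Car5a, read in place of the unmatched name Ca5a, was below the mean of 10 CPM and was not among those tested. Aqp9, a hepatocyte channel for urea and glycerol, was at 1.60 to 58.1 CPM in the tissues called tumours and at 247 to 320 CPM in NEJ638, NEJ654 and NEJ677. Glud1, which releases ammonia from glutamate, was at 373 to 491 CPM and 730 to 871 CPM. The reverse held for Slc25a12, the other aspartate-glutamate carrier and paralog of citrin, at 26.9 to 35.5 CPM and 11.8 to 19.9 CPM. Mitochondrial Got2, which makes aspartate, had 671 to 901 CPM and 403 to 449 CPM, and cytosolic Got1 the opposite, with 81.1 to 110 CPM and 133 to 248 CPM.

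Glutamine genes were divided too. Of 6 genes tested, 4 had NEJ638, NEJ654 and NEJ677 as the 3 highest and 1 as the 3 lowest. Glutamine synthetase, Glul, was at 36.4 to 116 CPM in the tissues called tumours and 333 to 561 CPM in the other 3. The glutamine carrier Slc38a3 was at 244 to 536 CPM and 1189 to 1603 CPM. The glutamine importer Slc1a5 was at 27.9 to 73.1 CPM against 1.96 to 9.05 CPM. Liver-type glutaminase, Gls2, was at 176 to 312 CPM and 342 to 418 CPM.

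The other users of arginine and ornithine were as divided, with 3 of 6 genes tested highest and 2 lowest in NEJ638, NEJ654 and NEJ677. Ornithine aminotransferase, Oat, was at 42.8 to 89.4 CPM in the tissues called tumours and at 651 CPM in NEJ638, 1433 in NEJ654 and 675 in NEJ677. Odc1, the first enzyme of polyamine synthesis, was at 192 to 295 CPM against 28.3 to 65.9 CPM, and the arginine importer Slc7a1 at 8.78 to 39.9 CPM against 0.46 to 1.09 CPM. All 3 pyrimidine genes were lowest in NEJ638, NEJ654 and NEJ677, an order shared by 44.1% of all genes. Their route draws on carbamoyl phosphate and aspartate outside the urea cycle. Cad, whose first activity makes cytosolic carbamoyl phosphate, was at 79.6 to 132 CPM in the tissues called tumours and at 7.53 to 11.6 CPM in the others. Of 10 other genes of amino acid breakdown, 9 were highest there, such as Hpd with 1228 to 2166 CPM against 224 to 521 CPM, and Gldc of the glycine cleavage system was lowest, with 111 to 188 CPM against 194 to 483 CPM.

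**Figure D2:**
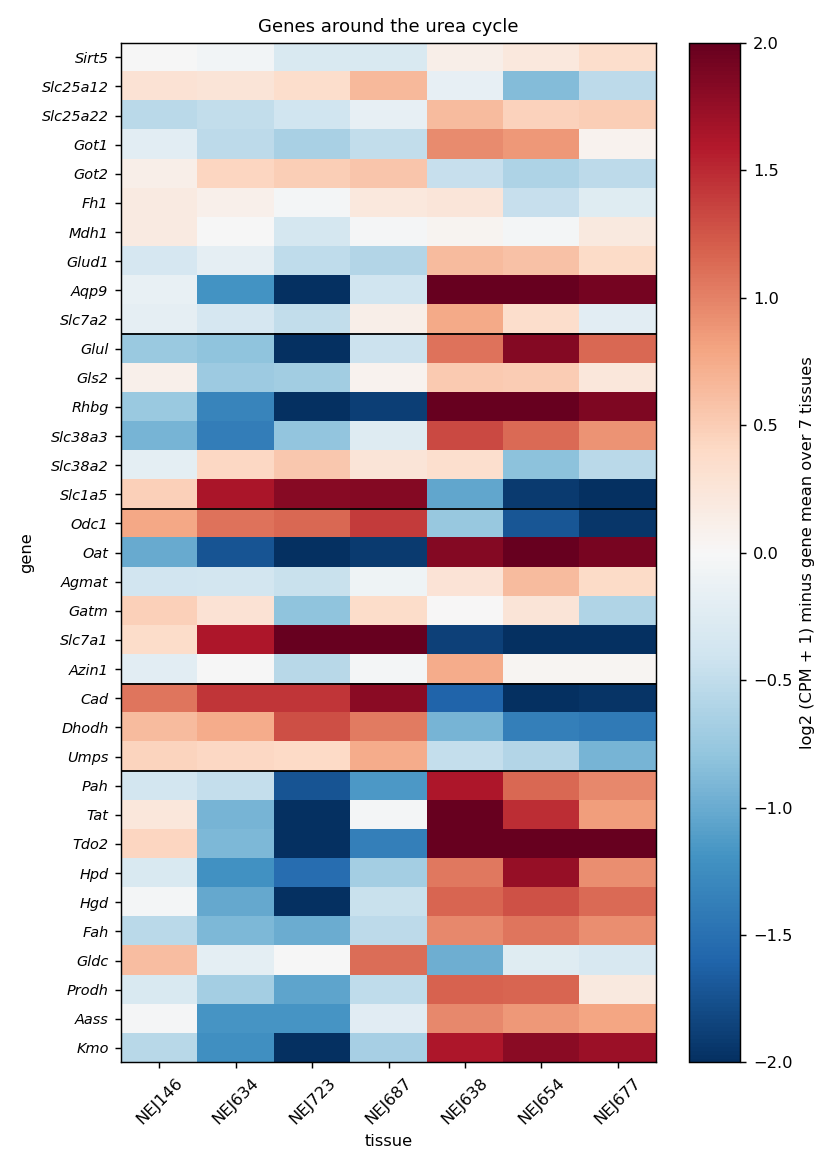
Genes of the 5 lists around the urea cycle (rows, lists separated by black lines) in the 7 tissues (columns), as log2(CPM + 1) minus the mean of the gene over tissues, with colours limited to 2 in either direction. Oat and Glul are high in NEJ638, NEJ654 and NEJ677, and Odc1, Slc7a1 and Cad are high in the other 4.

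To place the genes within the lobule, spots of each section were ranked by a zone score, the log2 ratio of pericentral (Cyp2e1, Cyp1a2, Slc1a2, Gulo, Axin2) to periportal UMIs (Cyp2f2, Hal, Hsd17b13, Pck1, Sds), and cut into 5 equal parts. None of the 8 genes entered the score. In NEJ638, NEJ654 and NEJ677 the marker sums opposed each other over spots (partial Spearman rho of -0.78, -0.74 and -0.81), with medians of 35 to 57 pericentral UMIs per spot. Glul, an independent pericentral gene, was lower in the periportal than in the pericentral part, by -2.59, -2.41 and -3.02 on the log2 scale.

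In these 3 tissues the steps of the cycle from Cps1 to Arg1 were periportal to unequal degrees. Arg1 was at 1260, 850 and 837 CPM in the most periportal part of NEJ638, NEJ654 and NEJ677 and at 518, 373 and 296 CPM in the most pericentral part. Its log2 ratios were 1.28, 1.19 and 1.50, the highest of the 8 genes in all 3 tissues, though in NEJ638 its interval overlapped that of Ass1. Ass1 had ratios of 1.23, 1.04 and 1.10, Asl of 1.09, 0.85 and 0.84, and Cps1 of 0.97, 0.81 and 0.89. These 4 were at least 0.50 in all 3 tissues, which held for 1.65% of 6501 genes tested, and none of the 8 was at or below -0.50 in all 3 (2.25% of genes).

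Otc was periportal by less, with log2 ratios of 0.41, 0.43 and 0.53, and its 95% interval for counting error lay below that of Cps1 in all 3 tissues. The ornithine carrier Slc25a15 had ratios of 0.36, 0.14 and 0.25. Nags was slightly the other way, at -0.20, -0.23 and -0.17. Slc25a13 was at -0.23, -0.27 and -0.07, and the intervals of both included 0 in NEJ677. The median gene was at 0.003, -0.10 and -0.10, so 0 was not the middle of all genes in NEJ654 and NEJ677. In NEJ677 Slc25a13 was at the 56.2nd percentile of genes and Nags at the 38.9th. Measured from 0, the signs of all 8 genes were the same in the 3 tissues, but measured from the median gene that of Slc25a13 was not. Over the 5 parts, Ass1, Asl and Arg1 were lower at every step in all 3 tissues, as was Cps1 in NEJ638 and NEJ654. In NEJ677 Cps1 was level up to the middle part (1951, 1942 and 1959 CPM) and then at 1709 and 1050 CPM.

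**Figure D3:**
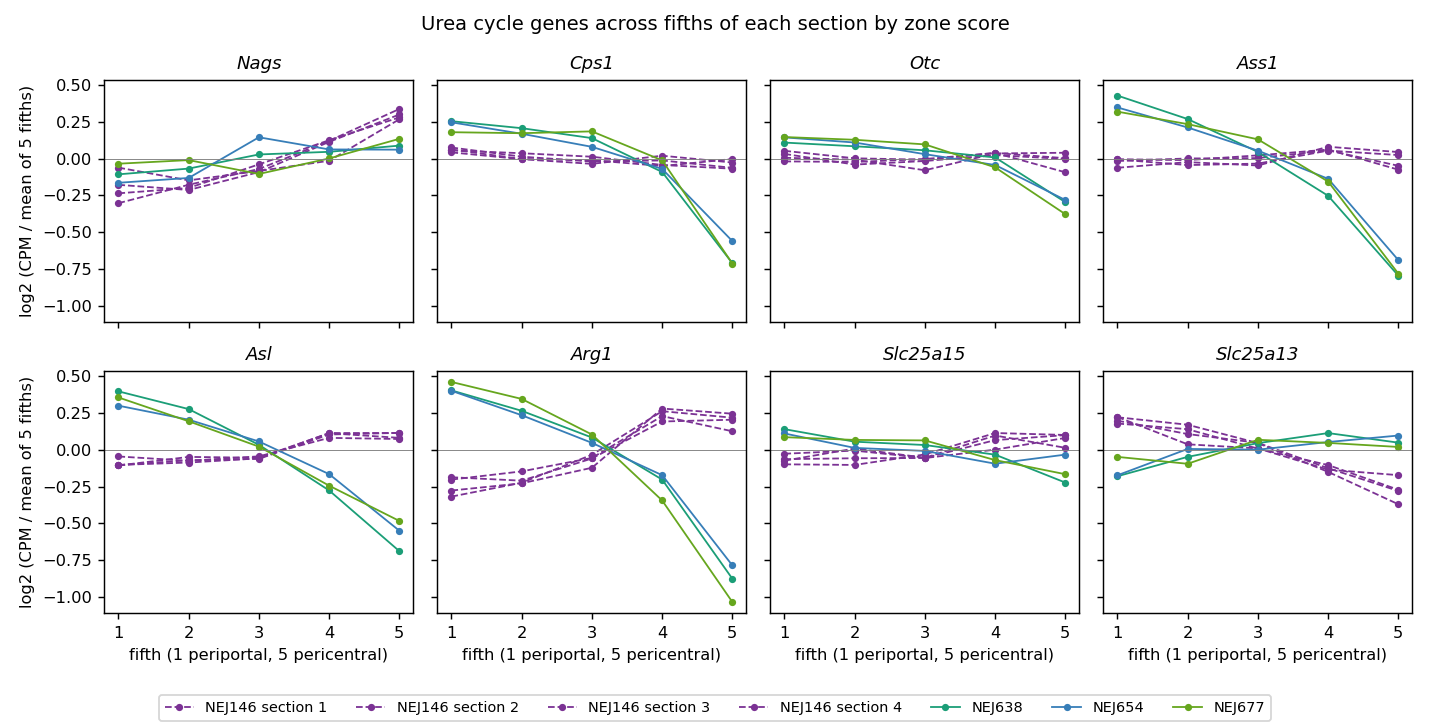
Level of each gene across 5 equal parts of the spots, from most periportal (1) to most pericentral (5) by zone score, as log2 of CPM over the mean of the 5 parts, for NEJ638, NEJ654 and NEJ677 (solid lines) and the 4 NEJ146 sections (dashed lines). Arg1 falls towards part 5 in the solid lines and rises in the dashed ones.

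Whether the score measured the same axis in the remaining tissues was not tested. Pericentral markers had medians of only 0 to 3 UMIs per spot there, and the marker sums opposed each other weakly or not at all (rho of -0.16 to 0.32). Hsd17b13 made up much of the periportal sum there. It had 861 of 977 CPM in NEJ723, 579 of 955 in NEJ634, 859 of 1566 in NEJ687 and 584 of 1324 in NEJ146. In NEJ638, NEJ654 and NEJ677 it had 408 of 3225, 337 of 2268 and 479 of 2826 CPM. In NEJ146, spots at the pericentral end of the score held more of Glul (-1.63 to -1.77 over the 4 sections) and Oat (-2.58 to -2.75). Rhbg of the glutamine list, with few UMIs, was at -3.97 to -5.39. These signs were those of NEJ638, NEJ654 and NEJ677. Arg1 was higher at that same end, with log2 ratios of -0.33 to -0.54, where it had been lower in NEJ638, NEJ654 and NEJ677. Alb turned by more, at -0.78 to -1.28 in NEJ146 and 0.49, 0.78 and 0.82 in those 3 tissues, and its part in the Arg1 values was not tested. Nags was at -0.33 to -0.64, Asl at -0.12 to -0.22 and Slc25a15 at -0.09 to -0.20. Cps1 (0.06 to 0.14), Ass1 (-0.11 to 0.07) and Otc (-0.03 to 0.15) were nearly level. Slc25a13 was higher at the periportal end, at 0.40 to 0.59, as was Gls2, at 0.88 to 1.11. No member reached 0.50 in either direction in all 4 sections, against 3.18% of 7236 genes upwards and 6.54% downwards.

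In NEJ687 and NEJ723, where the median pericentral count was 0, the 8 genes had log2 ratios of -0.17 to 0.32, and none reached 0.50 in either direction. The shares of genes that did were 0.393% upwards and 0.675% downwards in NEJ687, and 0.204% and 1.16% in NEJ723. In NEJ634 Cps1 was at -0.73 and Slc25a13 at -0.52, beside 3.25% of 8529 genes at or below -0.50, and no member was at 0.50 or above (1.75%). The Cps1 value became 0.10 when spots were thinned to 5000 UMIs, so no direction is drawn from it. Median depth in NEJ687 was 17344 UMIs per spot in the most periportal part and 11306 in the most pericentral part. In NEJ723 the median depth fell from 27589 to 9819 UMIs per spot along the score. With spots thinned to 5000 UMIs, the 8 ratios there were -0.03 to 0.18, and those of Ass1 (-0.03) and Slc25a13 (0.09) had changed sign.

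Spatial order was then measured without any score, as Moran's I between adjacent spots of the residuals from the spot total, where 0 means none. Cps1 was patterned in every section, at or above the 97.8th percentile of the genes of that section. These ranks were not matched for abundance, and Cps1 had a mean of 23.2 to 53.3 UMIs per spot. Moran's I of Cps1 was 0.81 in NEJ634, the 99.98th percentile, 0.46 to 0.56 in the NEJ146 sections, and 0.28 to 0.35 in the other 5 tissues. Nags was near 0 (-0.02 to 0.07), with a mean of 0.58 to 1.63 UMIs per spot to show any pattern.

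For Cps1 the contrast within a section was widest in NEJ634. Over spots with their neighbours, Cps1 rose from 763 CPM at the 10th percentile to 2655 CPM at the 90th, a 3.48-fold span, against 1.48- to 1.99-fold in the other 9 sections. Otc spanned 3.31-fold there. In the NEJ146 sections, leaving aside Nags with its few UMIs, the widest span was that of Arg1, at 2.77- to 3.34-fold, and Cps1 spanned 1.70- to 1.99-fold.

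**Figure D4:**
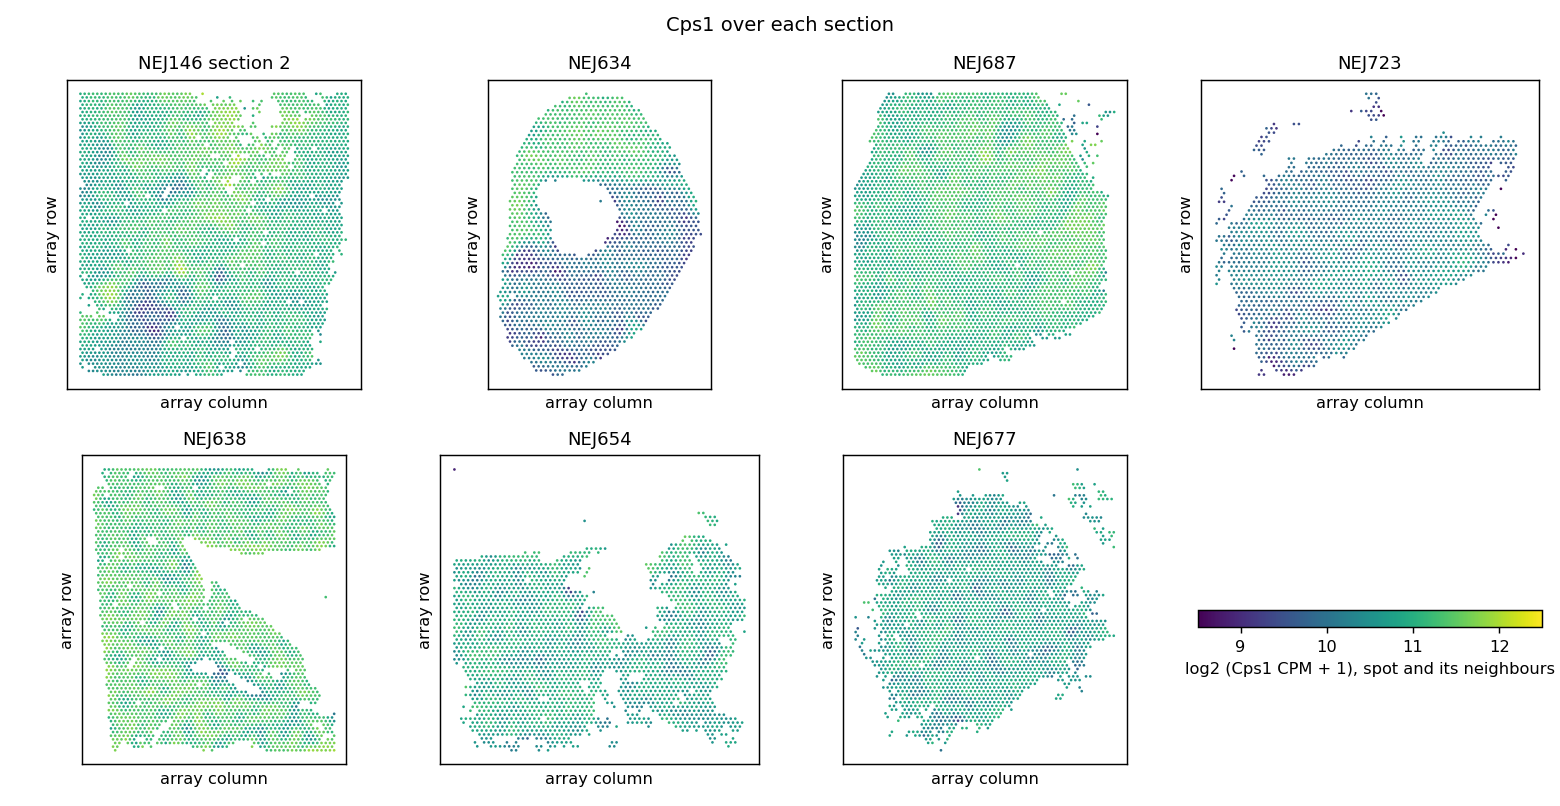
Cps1 over 7 sections, 1 per tissue, with each spot at its array position and coloured by log2(CPM + 1) of the spot and its neighbours on 1 shared colour scale. In NEJ634 high spots lie mostly in the upper and left parts, and neighbourhoods span 763 to 2655 CPM between the 10th and 90th percentiles.

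Whether the enzymes shared their places was measured as the partial Spearman correlation over spots, given the spot total, and spots are not replicates. In NEJ638, NEJ654 and NEJ677 Cps1 went with Ass1 (0.53, 0.43 and 0.41) and with Arg1 (0.51, 0.41 and 0.41), and Ass1 with Arg1 (0.53, 0.45 and 0.46). In NEJ146 Cps1 was nearly unrelated to Arg1 (-0.03 to 0.14 over 4 sections) while Ass1 and Arg1 were related (0.21 to 0.35). In NEJ687 Cps1 had 0.13 with Ass1 and -0.04 with Arg1, and in NEJ723 it had 0.21 and 0.23. NEJ634 resembled the first 3 tissues in value, with 0.54 and 0.41. Mean Arg1 UMIs per spot were 7.12 to 8.86 in NEJ146, 4.98 in NEJ687 and 5.72 in NEJ723, against 9.54 to 14.0 in NEJ638, NEJ654 and NEJ677. NEJ634 had 8.67. The part of these counts in the correlations was not tested.

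Slc25a13 went with Cps1 in NEJ146 (0.20 to 0.23) and NEJ634 (0.30). It had 0.08 with Cps1 in NEJ687 and 0.05 in NEJ723, and was near 0 in NEJ638, NEJ654 and NEJ677 (-0.02 to -0.01). Otc went with Cps1 at 0.24, 0.22 and 0.27 in those 3 tissues, at 0.07 to 0.22 in NEJ146, 0.03 in NEJ687, 0.49 in NEJ634 and 0.16 in NEJ723.

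**Figure D5:**
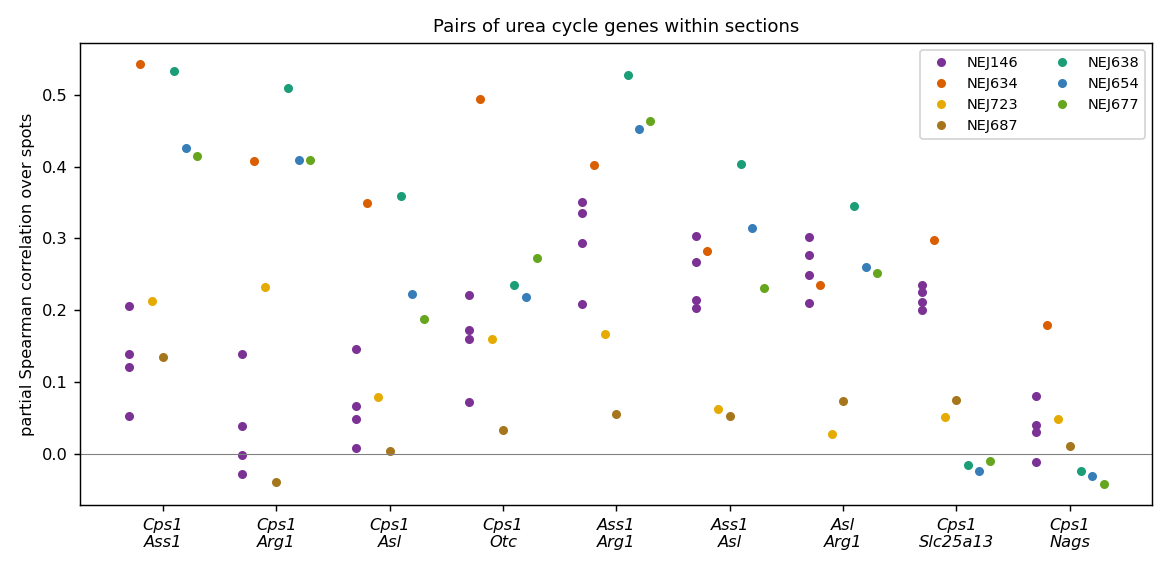
Partial Spearman correlation over spots (vertical axis) for 9 pairs of urea cycle genes, with 1 point per section, coloured by tissue. For Cps1 with Arg1, NEJ634, NEJ638, NEJ654 and NEJ677 lie at 0.41 to 0.51 and the NEJ146 sections at -0.03 to 0.14.

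The surroundings of Cps1 also differed between tissues. Its correlation with the summed hepatocyte genes was 0.50, 0.51 and 0.47 in NEJ638, NEJ654 and NEJ677, and -0.29 to -0.30 in the NEJ146 sections, where Arg1 had 0.31 to 0.42. Against Alb alone Cps1 had -0.29 to -0.36 in NEJ146. In NEJ146 it was lower where stromal genes (-0.33 to -0.41) and bile duct genes (-0.29 to -0.34) were higher, and Arg1 higher there (0.17 to 0.20 and 0.22 to 0.27). The bile duct list was mostly Spp1, at 110 of its 124 CPM in NEJ146 and 351 of its 440 CPM in NEJ634. With the summed adult globin genes Cps1 had -0.25 to -0.29 in NEJ146, -0.33 in NEJ687 and 0.37 in NEJ634. The paper reports raised haemoglobin counts in its tumour-specific single-cell clusters, so these genes need not mark red cells alone. The part of these cell types in the values was not tested.

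In NEJ634 Cps1 went with the macrophage genes (0.54) and against the stromal (-0.35) and bile duct genes (-0.35). Among single genes, chosen after the lists had been seen, it went with H19 (0.69) and Cyp2e1 (0.56) and against Dlk1 (-0.52) and Afp (-0.43), which are oncofetal as H19 is. Cps1 also went with H19 in NEJ146 (0.33 to 0.43) and NEJ687 (0.26), and Arg1 went against it in both (-0.25 to -0.28 and -0.24), but with it in NEJ634 (0.20) and NEJ638 (0.22). The summed oncofetal list thus hid members that pointed in opposite directions.

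The genes outside the cycle most like Cps1 over spots, by the correlation of residuals averaged over 7 tissues among 5800 genes, were Igfbp2 (0.49), Ahsg (0.39), Gnmt (0.39), Uox (0.38) and Apoc3 (0.37). Igfbp2, a secreted binder of insulin-like growth factors, was at 0.34 or more in every tissue, and Ass1 ranked between it and Ahsg (0.42). Most like Cps1 in level over the 7 tissues were Sds (r = 0.98), which breaks down serine and is among the periportal markers, Hdlbp (0.98), Clec14a (0.97), Abcd2 (0.96) and Acad12 (0.95). Over the same tissues Slc25a13 had an r of 0.85 with Cps1, Ass1 0.74, and Nags 0.26. With 7 points and many genes searched, these values are descriptions.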

How the data were processed

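Unnormalised UMI counts, by gene and by spot, were deposited by the authors for 10 Visium sections. Space Ranger 1.3 (mm10) is named in the submitters' processing notes for the 6 tissues with 1 section and Cell Ranger 6.0 for NEJ146. For the former, deposited tissue calls were used; for NEJ146, spots of at least 8000 UMIs were taken, placed by barcode. UMIs were summed over tissue spots as CPM. The section spread was the SD of log2(CPM + 1) over NEJ146 sections, or that of the median gene if larger. Genes whose mean reached 10 CPM formed the background. Spatial measures used spots of at least 1000 UMIs. Intervals (95%, Poisson) cover counting error only. No pair of NEJ146 sections agreed within sampling noise, and all 4 were kept.

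The named genes were the 8 members, fixed pathway and marker lists, and the 5 genes most like Cps1 in space and in level. One gene of the lists was left out of all results. Members and lists were chosen with earlier results of these data known. Analyses ran in Python 3.11.15 with numpy 2.4.6 and scipy 1.17.1, and TMM factors in edgeR 4.0.16. Scripts were tested on simulated data. Alternatives covered the tissue call, CPM total, pseudocount, spread, zone score, thinning, neighbours and each NEJ146 section left out, and, added after seeing the data, NEJ146 left out and all spots of each slide.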

Additional observations from a re-analysis of the deposited data

Results flagged for a closer look

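Arg1, Asl, Slc25a15 and Slc25a13 had log2 ratios between the periportal and pericentral ends of the zone score that were of 1 sign in NEJ638, NEJ654 and NEJ677 and of the other in all 4 NEJ146 sections. The mean over the NEJ146 sections was -0.44 for Arg1, -0.19 for Asl, -0.14 for Slc25a15 and 0.48 for Slc25a13. The Slc25a13 ratio of NEJ677 (-0.07) lay above that of the median gene there (-0.10). In NEJ146 the pericentral markers had medians of 1 to 3 UMIs per spot. The marker sums did not oppose each other there (rho of -0.08 to 0.03). Glul, Oat and Gls2 kept the signs they had in NEJ638, NEJ654 and NEJ677. Alb did not, at -0.78 to -1.28 in the NEJ146 sections and 0.49, 0.78 and 0.82 in NEJ638, NEJ654 and NEJ677. Whether the ends are alike was not tested. Nor was the difference in sign, since each of the 3 tissues is 1 section and the 4 sections are of 1 tissue.

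Section 4 of NEJ146 lay far from the other 3 for Otc, at 220 CPM against 190 to 193 CPM. It was the only such case in 24 sets of 4 sections, where chance gives about 1 in 20.

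Spots called off tissue held UMIs of the 8 genes at summed levels of 3374 CPM in NEJ634, 2182 in NEJ723, 4728 in NEJ687, 6338 in NEJ638, 5621 in NEJ654 and 5305 in NEJ677. Over tissue the sums were 2988, 2471, 4443, 6258, 5293 and 4734 CPM. As counts, off-tissue spots held 117219 UMIs of the 8 genes in NEJ634, against 168940 over tissue. These counts were 57082 against 107843 in NEJ723 and 19856 against 255175 in NEJ687. NEJ638 had 122060 against 320309, NEJ654 180442 against 224935 and NEJ677 136198 against 185957. The source of these UMIs and their part in the spatial values were not tested.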

How the results depend on the processing

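The order with NEJ638, NEJ654 and NEJ677 on top held for 6 members in every alternative but the total without abundant genes, which gave 7. Leaving out each NEJ146 section gave 6 to 6 members for the order and 6 to 8 for a range beyond the section spread, and the share of all genes beyond it rose from 62.9% to 81.6% without section 4. All 8 passed the range rule with TMM scaling (55.6% of all genes), without abundant genes (57.8%) or at 5 times the spread (92.3%, so near the background), and 7 passed in the other alternatives that kept all 4 sections. Without tissue NEJ146 the counts of the order and the range were 6 and 7, as with all spots of each slide. The 4 genes at 0.50 or more towards the periportal end were also 4 under each zone alternative run. Among the gaps, and the zone ratios of 0.50 or more in size, 2 values reversed: the Slc25a13 gap, 0.018 without abundant genes in the total, and the Cps1 zone ratio in NEJ634, 0.10 with spots thinned to 5000 UMIs. The causes were not tested. Smaller zone ratios changed sign too. Of 320 zone values of single genes under alternatives, 216 moved by less than their error and 103 by more. The same held for 143 and 57 values of Moran's I and for 88 and 23 gaps. No paired analysis was possible because tissues other than NEJ146 have 1 section each, so groups share fewer than 2 replicate numbers. Nags, with 0.58 to 1.63 UMIs per spot, limits what its spatial values can show.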
